A study of Mus musculus with 6 samples.

Results

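miR-199a, miR-199b and miR-214 are microRNAs (miRNAs) of mesenchymal cells, which in the liver are the hepatic stellate cells and fibroblasts. The 4 members described here, miR-199a-3p, miR-199a-5p, miR-199b-3p and miR-214-3p, were taken by name from a table of 1960 mouse miRNAs. Of the 4, 3 had a row in that table and passed the filter on low counts, which 297 miRNAs passed in all; miR-199b-3p had no row of its own.

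The counts came from immune cells prepared from dissociated livers of wildtype female C57BL/6J mice, 10 weeks old, in 3 groups of 2 libraries. Vehicle mice, labelled as free of disease, got the solvent alone, DMSO in corn oil. ConA+Vehicle mice got the solvent and concanavalin A (ConA), a T cell mitogen that causes hepatitis in mice, at 12.5 mg/kg by the retro-orbital route. ConA+D8THC mice were given the same dose of ConA and, by the intraperitoneal route, the cannabinoid delta-8-tetrahydrocannabinol (D8THC) at 20 mg/kg in 100 µL, once 15 to 18 h before ConA and once 30 min after it. The labels call the libraries biological replicates. The sources used here give neither the number of mice behind a library nor the time of collection.

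A miRNA is cut from a hairpin precursor, and either arm of the hairpin, named 5p and 3p, can be loaded into the silencing complex. There, bases 2 to 8, the seed, pair with target messenger RNAs. Stellate cells store vitamin A in the resting liver and turn into collagen-producing myofibroblasts after injury, and miR-199a and miR-214 are known to be abundant in these cells and in fibrotic liver. miR-199a-5p represses caveolin 1, a brake on transforming growth factor beta signalling, and miR-199a-3p represses the kinase mTOR and the receptor MET.

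The mature sequences are shown because 2 of the members cannot be told apart by sequence. In each, from RefSeq (GRCm38.p6, the mm10 assembly), the seed is in capitals.
miR-199a-3p: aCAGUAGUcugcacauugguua
miR-199b-3p: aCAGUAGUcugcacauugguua
miR-199a-5p: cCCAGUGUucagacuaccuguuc
miR-214-3p: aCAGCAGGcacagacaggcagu
miR-214-5p: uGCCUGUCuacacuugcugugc
miR-199a-3p and miR-199b-3p were identical over all 22 bases. A read of this sequence can come from either gene, and the sources used here do not say how the counting assigned it, so the row named miR-199a-3p is read as holding what both genes could give. The seeds of miR-199a-3p, miR-199a-5p and miR-214-3p were 3 different ones. In the RefSeq table the miR-214-3p seed was shared with 1 other miRNA, miR-761, which had 0 counts in all 6 libraries. An approximate 95% upper limit for a count of 0, 3 counts, would be 0.000256% to 0.000929% of a library.

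The hairpins show where the arms lie, with the mature arms that RefSeq lists in capitals.
Mir199a-2: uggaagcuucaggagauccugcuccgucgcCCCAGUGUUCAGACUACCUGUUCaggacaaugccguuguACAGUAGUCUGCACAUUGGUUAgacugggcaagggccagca
Mir199a-1: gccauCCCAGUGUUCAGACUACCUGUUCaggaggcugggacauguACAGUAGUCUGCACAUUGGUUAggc
Mir199b: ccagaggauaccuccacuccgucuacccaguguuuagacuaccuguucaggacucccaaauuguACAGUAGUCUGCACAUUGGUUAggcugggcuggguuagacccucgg
Mir214: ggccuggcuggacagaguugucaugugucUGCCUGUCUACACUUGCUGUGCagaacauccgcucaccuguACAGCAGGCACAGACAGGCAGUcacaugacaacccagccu
Mir199a-2 (mm10 chr1:162217814-162217923, plus strand) and Mir214 (chr1:162223368-162223477, plus strand) lay 5444 bases apart. In GENCODE M21 both were within an exon of the noncoding gene Dnm3os, which runs opposite to the dynamin gene Dnm3 and falls in an intron of it. Mir199a-1 (chr9:21496495-21496564, minus strand) was antisense to an intron of Dnm2, and Mir199b (chr2:32318460-32318569, plus strand) was antisense to an intron of Dnm1. The row of miR-199a-5p could thus draw on 2 hairpins, that of miR-199a-3p on 3, and that of miR-214-3p on 1.

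Library totals ran from 322764 counts in ConA+Vehicle replicate 2 to 1172389 in Vehicle replicate 2, and both ConA+Vehicle libraries were the shallowest. The arms of miR-142a, which mark blood cells, took 2.53% to 11.2% of a library. The arms of miR-126a, which mark endothelium, took 12.8% to 34.2%, and 6 hepatocyte miRNAs took 5.18% to 19.7%, so that markers of cells other than immune cells were abundant in all 6 libraries. The 3 member rows together took 0.784% and 0.870% of the counts in Vehicle, 0.388% and 0.372% in ConA+Vehicle, and 0.543% and 0.806% in ConA+D8THC.

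miR-199a-3p was by far the most counted member. In CPM (counts scaled to 1000000 in each library), with library totals adjusted by edgeR's TMM method, it stood at 6966 and 7588 in Vehicle replicates 1 and 2, at 3052 and 3492 in ConA+Vehicle, and at 4420 and 6870 in ConA+D8THC. Both ConA+Vehicle libraries were below the other 4, and both ConA+D8THC libraries were between the ConA+Vehicle and the Vehicle libraries, the second of them just below Vehicle replicate 1. The order of those last 2 libraries depended on the scaling. Of unscaled counts miR-199a-3p took 0.699% in ConA+D8THC replicate 2 and 0.670% in Vehicle replicate 1. By group mean miR-199a-3p was the 25th most abundant of the 297 tested miRNAs in Vehicle, the 42nd in ConA+Vehicle and the 29th in ConA+D8THC.

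miR-199a-5p, from the other arm of the same hairpins, stood at 1167 and 1324 CPM in Vehicle, at 626 and 473 in ConA+Vehicle, and at 683 and 1039 in ConA+D8THC. The 3 groups did not overlap, in the same order as for miR-199a-3p, although ConA+D8THC replicate 1 was close to ConA+Vehicle replicate 1. Such separation was common, since any pair of groups did not overlap for 46.8% to 74.7% of all tested miRNAs.

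miR-214-3p was rare, with 19 and 39 counts in Vehicle, 5 and 4 in ConA+Vehicle, and 12 and 9 in ConA+D8THC. These were 26.2 and 34.2 CPM in Vehicle, 12.5 and 13.2 in ConA+Vehicle, and 12.4 and 12.8 in ConA+D8THC. The 4 libraries from mice given ConA overlapped and lay below both Vehicle libraries. With so few counts the precision was low: the 95% Wilson interval for ConA+Vehicle replicate 2 ran from 4.82 to 31.9 CPM of the unscaled total, and that for Vehicle replicate 1 from 16.1 to 39.4. These intervals cover counting error only. miR-214-3p also passed the filter on low counts only through Vehicle, at 25.2 and 33.3 CPM of unscaled totals against a minimum of 13.8, while the 4 ConA libraries had 12.4 to 13.1. It could therefore enter the tests only with Vehicle high, and its differences from Vehicle are given as values that this choice favoured.

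**Figure D1:**
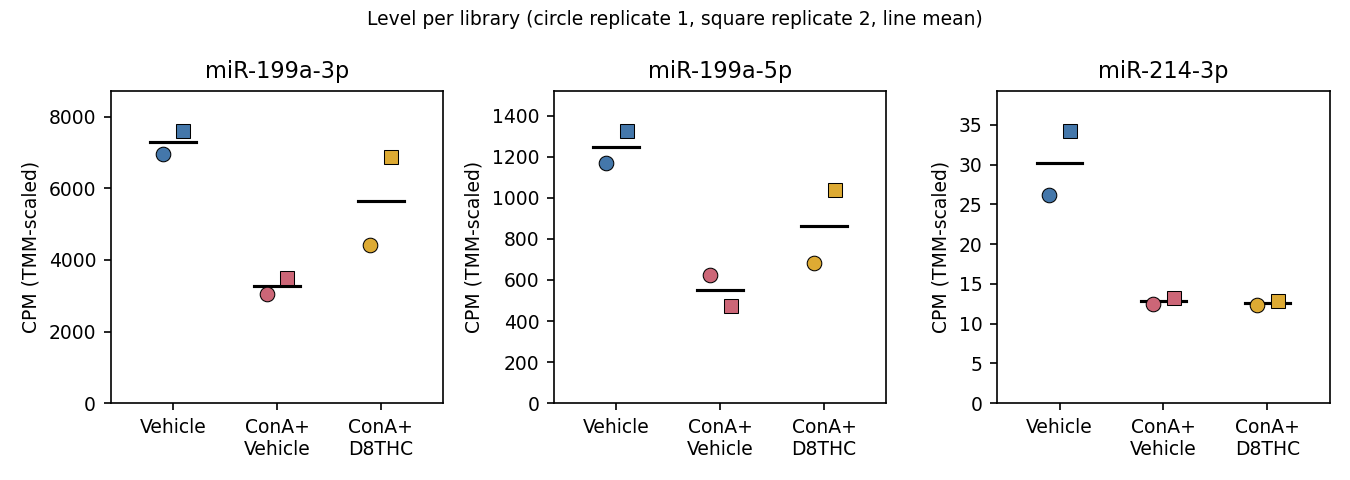
Level of miR-199a-3p, miR-199a-5p and miR-214-3p in each library, in TMM-scaled CPM on a linear axis from 0; circles are replicate 1, squares replicate 2 and lines the mean of 2. For miR-199a-3p and miR-199a-5p the ConA+D8THC libraries lie between the other groups, while for miR-214-3p they lie with the ConA+Vehicle libraries at 12.4 to 13.2 CPM.

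ConA+Vehicle was set against Vehicle to ask which of the members differ in mice with ConA hepatitis. Both arms of miR-199a fell. miR-199a-3p went from 7277 ± 440 CPM (SD, n = 2) to 3272 ± 311 and was 2.22-fold lower (log2 -1.15 ± 0.24 SE, edgeR quasi-likelihood adjusted p = 0.00391). miR-199a-5p went from 1246 ± 110 to 550 ± 108 CPM and was 2.26-fold lower (log2 -1.18 ± 0.27, adjusted p = 0.00589). miR-214-3p had 30.2 ± 5.63 CPM in Vehicle and 12.9 ± 0.546 in ConA+Vehicle and did not pass (log2 -1.24 ± 0.48, adjusted p = 0.0667), nor did it in any of 15 alternatives (adjusted p from 0.0530 to 0.292).

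Of the 3 tested members 2 were called lower at an adjusted p under 0.05, and 16.8% of all tested miRNAs were called lower. The median log2 change of all 297 was 0.10. The Vehicle and ConA+Vehicle libraries did not overlap for both arms of miR-199a, and for 67.3% of all tested miRNAs. They did not overlap for miR-214-3p either, which the filter favoured. With ConA+Vehicle replicate 2 left out, miR-199a-5p was no longer called (log2 -0.98, adjusted p = 0.0551). Over its 15 alternatives the adjusted p lay between 2.32e-05 and 0.0551. In bulk RNA, fewer cells that make a miRNA and less of it per cell cannot be told apart.

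The share of counts from the 2 endothelial miRNAs moved with the members, from 32.7% to 34.2% in Vehicle to 12.8% to 13.2% in ConA+Vehicle. That of the 6 hepatocyte miRNAs went from 8.35% to 13.9% in Vehicle to 17.1% to 19.7%, and that of the 2 miR-142a arms from 2.53% to 7.31% to 9.03% to 10.3%. By edgeR miR-142a-5p was called higher (2.48-fold, adjusted p = 0.0188), and the more abundant miR-142a-3p was not called (adjusted p = 0.222). Of the 6 hepatocyte miRNAs 4 were called higher and miR-122-3p lower (2.28-fold, adjusted p = 0.0167 by edgeR), while the most abundant, miR-122-5p, was not called (adjusted p = 0.124). The share of the arms of miR-223, which mark myeloid cells, went from 0.333% and 0.353% in Vehicle to 2.75% and 2.91% in ConA+Vehicle, and miR-223-3p was 8.12-fold higher (adjusted p = 4.43e-05). None of these markers was at 0 in any group. Their part in the fall of the members was not tested.

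The effect of D8THC under ConA was read from ConA+D8THC against ConA+Vehicle. No member was called by edgeR; among all tested miRNAs 3.7% were called, all of them lower. miR-199a-3p had 5645 ± 1733 CPM (SD, n = 2) in ConA+D8THC against 3272 ± 311 in ConA+Vehicle (log2 0.79 ± 0.24, unadjusted p = 0.00782, adjusted p = 0.0929 by edgeR). miR-199a-5p had 861 ± 251 against 550 ± 108 CPM (log2 0.64 ± 0.27, unadjusted p = 0.0343, adjusted p = 0.212 by edgeR). miR-214-3p had 12.6 ± 0.297 against 12.9 ± 0.546 CPM (log2 -0.03 ± 0.54, adjusted p = 0.990 by edgeR). Under 4 scalings its log2 difference lay 0.013 to 0.024 above the median of all tested miRNAs.

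The libraries of these groups did not overlap for 2 of 3 members, both arms of miR-199a, and for 46.8% of all tested miRNAs. Whether miR-199a-3p was called depended on the setting, with calls in 6 of 15 alternatives. It was called higher by DESeq2 (adjusted p = 0.0436), with only the 4 libraries of both groups in the fit (0.0467) and with the replicate number as a block (0.00166). It was also called without Vehicle replicate 1 (0.0196), Vehicle replicate 2 (0.00643) or ConA+D8THC replicate 1 (log2 1.08, 0.00973), and its adjusted p was highest, 0.752, without ConA+D8THC replicate 2 (log2 0.46). These fits also called more miRNAs in all than the 11 of 297 above: 17 of 297 in DESeq2, 18 of 253 with both groups alone, 44 of 297 with the block, 34 of 320 and 40 of 318 without Vehicle replicate 1 or 2, and 17 of 319 without ConA+D8THC replicate 1. miR-199a-5p was called higher in 1 of 15 alternatives, without ConA+D8THC replicate 1 (log2 0.93, adjusted p = 0.0351). The endothelial share was 20.7% and 26.7% in the ConA+D8THC libraries, against 12.8% to 13.2% in ConA+Vehicle, the hepatocyte share 5.18% to 7.15% against 17.1% to 19.7%, and the myeloid share 1.48% to 2.17% against 2.75% to 2.91%. By edgeR 4 of the 6 hepatocyte miRNAs were called lower. Neither miR-126a-3p (adjusted p = 0.0795) nor miR-126a-5p (0.200) was called. Of the myeloid arms, miR-223-3p (log2 -0.72, adjusted p = 0.106) and miR-223-5p (log2 0.23, 0.867) differed in direction, and neither was called. The part of these markers in the values of the members was not tested.

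ConA+D8THC was set against Vehicle to ask what remained different from unchallenged mice when both agents were given. Neither arm of miR-199a passed: miR-199a-3p was at log2 -0.37 ± 0.24 (adjusted p = 0.243 by edgeR) and miR-199a-5p at log2 -0.53 ± 0.26 (adjusted p = 0.128), while 14.1% of all tested miRNAs were called lower. Both values turned on the ConA+D8THC libraries. Without replicate 1 they were -0.07 and -0.25, and without replicate 2 they were -0.68 and -0.83. In TMM-scaled CPM the groups did not overlap for both arms, and for 74.7% of all tested miRNAs. On unscaled totals they did overlap for miR-199a-3p.

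miR-214-3p, which the filter admitted only through Vehicle, had 12.6 ± 0.297 CPM (SD, n = 2) in ConA+D8THC against 30.2 ± 5.63 in Vehicle (log2 -1.27 ± 0.40, adjusted p = 0.0341 by edgeR). That call rests on few counts and on a choice that favoured it. It ended in 8 of 15 alternatives, among them DESeq2 (adjusted p = 0.278), no filter (0.105), and the fits without Vehicle replicate 2 (log2 -1.01, 0.203), ConA+Vehicle replicate 2 (0.0537), ConA+D8THC replicate 1 (0.152) or ConA+D8THC replicate 2 (0.110). For miR-199a-5p, the fit with the replicate number as a block called it lower (adjusted p = 0.0354). The 3 comparisons share libraries in pairs, so that they are not independent of one another.

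**Figure D2:**
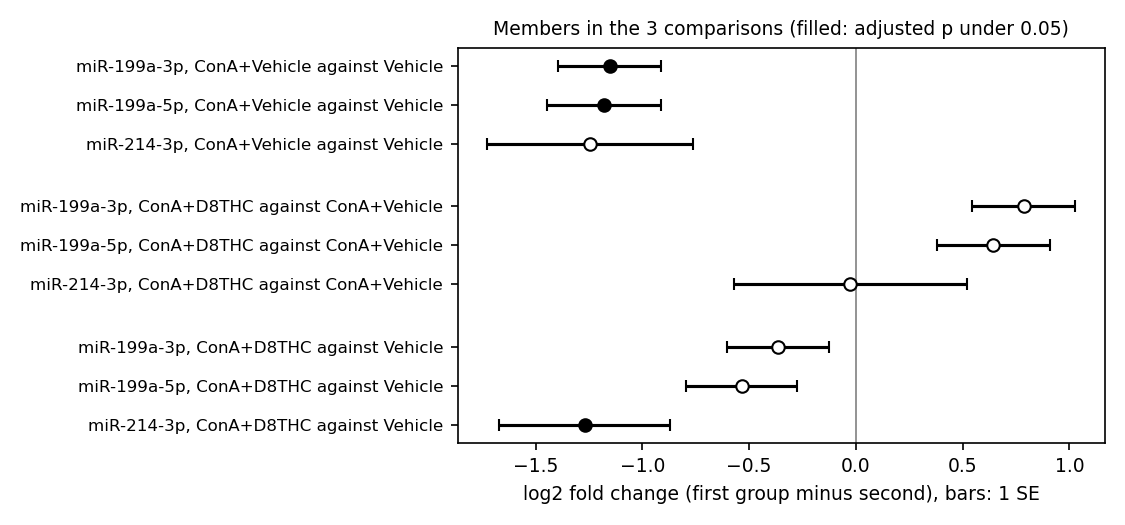
Log2 fold changes of the 3 tested members in the 3 comparisons (x axis, first group minus second, bars 1 SE); filled points have an edgeR adjusted p under 0.05. miR-199a-3p and miR-199a-5p lie at -1.15 and -1.18 with ConA and at 0.79 and 0.64 between ConA+D8THC and ConA+Vehicle, where miR-214-3p is at -0.03.

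Ratios of counts within a library do not depend on how libraries are scaled. miR-199a-3p had 5.97 and 5.73 counts for each count of miR-199a-5p in Vehicle, 4.88 and 7.38 in ConA+Vehicle, and 6.47 and 6.62 in ConA+D8THC. The 3p arm was thus counted more in all 6 libraries. The ConA+Vehicle replicates lay on either side of all the others, so that no difference between groups was larger than the spread within ConA+Vehicle. Levels of different miRNAs also carry differences in how well each sequence enters a library, which these data do not measure.

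The 5p arm has separate rows for miR-199a and miR-199b, where the 3p arm cannot, but does not separate Mir199a-1 from Mir199a-2. How the counting treated reads that match several miRNAs is not given. miR-199b-5p had 6 and 13 counts in Vehicle, 5 and 1 in ConA+Vehicle, and 6 and 8 in ConA+D8THC, in all 39 against 4142 counts of miR-199a-5p. It did not pass the filter and was not tested. Over the 6 libraries miR-199a-5p had 50.2 to 143 counts for each count of miR-199b-5p.

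The arms of miR-214 were both rare. miR-214-5p had 5 and 18 counts in Vehicle, 1 and 1 in ConA+Vehicle, and 6 and 5 in ConA+D8THC, in all 36 against 88 of miR-214-3p. The 3p arm was counted more often in each library, by 1.8 to 5 times. The exact 95% interval of the ratio reached below 1 in all but the Vehicle libraries.

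miR-199a-3p and miR-214-3p come in part from the same host transcript, Dnm3os. miR-199a-3p had 266 and 222 counts for each count of miR-214-3p in Vehicle, 245 and 264 in ConA+Vehicle, and 357 and 537 in ConA+D8THC. The ConA+D8THC libraries were above the other 4. Their exact 95% counting intervals, 204 to 691 and 282 to 1174, overlapped that of Vehicle replicate 2, 162 to 312. The difference was not tested between groups, since 2 libraries against 2 allow no permutation p under 0.333.

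The non-member most like miR-199a-3p, by Pearson's r of log2 CPM over the 6 libraries, was the endothelial miR-126a-3p (r = 0.979), followed by miR-542-3p (0.949) and miR-125b-5p (0.948). For miR-199a-5p these were miR-503-3p (0.980), miR-125b-5p (0.961) and miR-126a-3p (0.943). For miR-214-3p they were miR-139-5p (0.980), miR-23b-3p (0.975) and miR-30c-5p (0.973). Between members, r was 0.937 for the arms of miR-199a, 0.709 for miR-199a-3p with miR-214-3p and 0.769 for miR-199a-5p with miR-214-3p. These are descriptions over 6 libraries of 3 groups, which share their library totals and scaling. The r values of miR-214-3p also rest on few counts and on a filter that it passed only through Vehicle.

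Against miR-126a-3p, which resides in the endothelial gene Egfl7, the ratio of miR-199a-3p varied least among those to the cell type miRNAs here. miR-199a-3p had 2.88 and 2.66 counts per 100 counts of miR-126a-3p in Vehicle, 3.46 and 3.51 in ConA+Vehicle, and 3.04 and 3.55 in ConA+D8THC. The highest library was 1.33 times the lowest. Both Vehicle libraries had the lowest ratios. miR-126a-3p itself was 2.81-fold lower in ConA+Vehicle than in Vehicle (adjusted p = 0.000921 by edgeR).

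Against miR-143-3p, a miRNA of smooth muscle and stellate cells, the ratio was not level. miR-199a-3p had 149.5 and 185.6 counts per 100 counts of miR-143-3p in Vehicle, 38.5 and 92.5 in ConA+Vehicle, and 249.4 and 160.0 in ConA+D8THC. Both ConA+Vehicle libraries were below the other 4, and the highest ratio was 6.49 times the lowest. Against the blood cell miRNA miR-142a-3p, miR-199a-3p had 10.9 and 37.1 counts per 100 in Vehicle, 4.04 and 4.68 in ConA+Vehicle, and 5.41 and 11.5 in ConA+D8THC. There Vehicle replicate 2 stood far above the other libraries. Against the hepatocyte miRNA miR-122-5p, it had 9.06 and 5.92 counts per 100 in Vehicle, 2.22 and 1.96 in ConA+Vehicle, and 10.8 and 12.0 in ConA+D8THC. By that measure the ConA+D8THC libraries were above those of Vehicle.

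**Figure D3:**
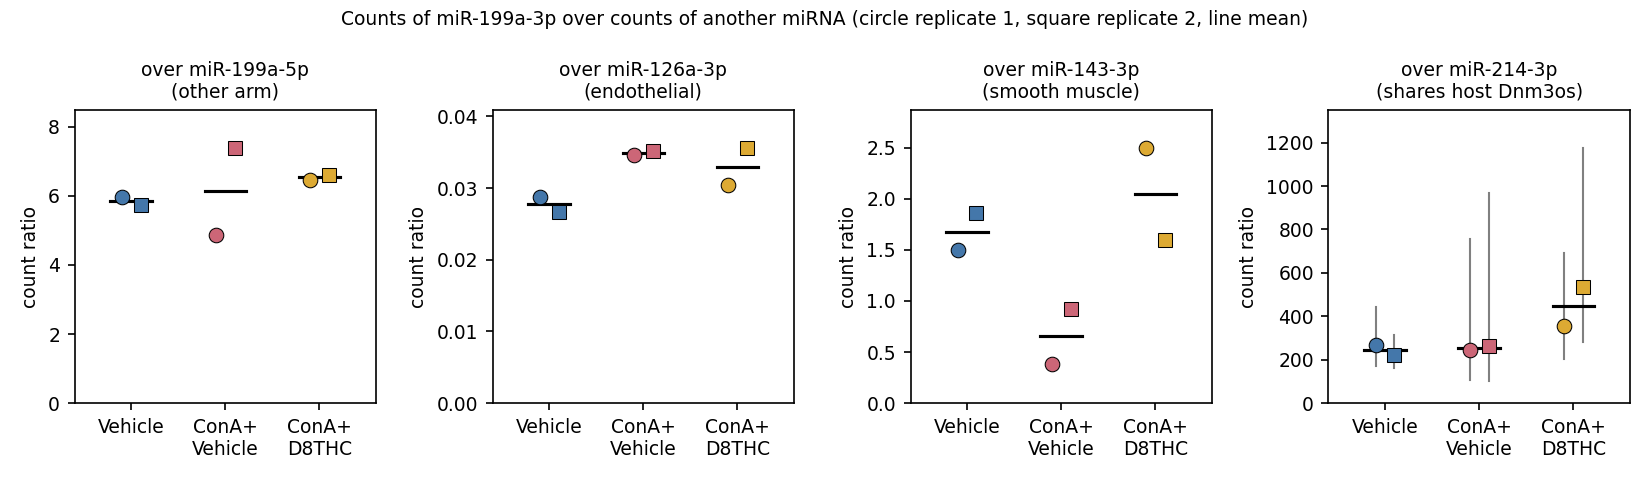
Counts of miR-199a-3p over counts of miR-199a-5p, miR-126a-3p, miR-143-3p and miR-214-3p in each library, on linear axes from 0; circles are replicate 1, squares replicate 2, lines the mean of 2, and grey bars in the last panel exact 95% counting intervals. The ratio to the endothelial miR-126a-3p spans 1.33 times over the 6 libraries and the ratio to miR-143-3p spans 6.49 times.

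Other miRNAs of mesenchymal cells were read from a list of 11, of which 9 were tested. With ConA, 5 of the 9 were called lower and 0 higher, beside 16.8% of all tested miRNAs lower, and the median log2 change was -0.86. That median is the value of miR-143-5p, which was not called (SE 0.80, adjusted p = 0.461 by edgeR). It had 30 and 29 counts in Vehicle, 13 and 0 in ConA+Vehicle, and 7 and 9 in ConA+D8THC. Outside Vehicle only ConA+Vehicle replicate 1 was above the filter's minimum, so miR-143-5p too entered the tests with Vehicle high. The 5 called lower were miR-100-5p (3.40-fold lower, adjusted p = 0.000418), miR-99a-5p (3.06-fold, 0.000418), miR-10b-5p (2.48-fold, 0.00369), miR-125b-5p (2.13-fold, 0.00211) and miR-152-3p (1.72-fold, 0.0244), each by edgeR. miR-99a and miR-100 are close relatives, miR-125b is made from the same clusters as these, and miR-10b lies in a Hox gene cluster. miR-99a, miR-100, miR-125b and miR-10b are also made in endothelium.

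The arms of miR-143 and miR-145a, the other pair on the list known from stellate cells and smooth muscle, were not called. miR-143-3p had 4374 ± 403 CPM in Vehicle and 5856 ± 2941 in ConA+Vehicle (SD, n = 2; log2 0.42 ± 0.47, adjusted p = 0.558 by edgeR). miR-145a-5p had 480 ± 19.8 and 389 ± 339 CPM (log2 -0.29 ± 0.57). In both cases the ConA+Vehicle replicates were far apart. The 5 tested stellate cell and fibroblast markers together took 1.28% and 1.32% of the counts in Vehicle, 1.29% and 0.740% in ConA+Vehicle, and 0.743% and 1.26% in ConA+D8THC. ConA+Vehicle replicate 1 was thus at the level of Vehicle, and the groups overlapped for this list as a whole. Within it, miR-199a-3p made up 52.4% and 56.1% of the list's counts in Vehicle, 24.9% and 44.2% in ConA+Vehicle, and 63.1% and 55.4% in ConA+D8THC.

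Between ConA+D8THC and ConA+Vehicle, 0 of the 9 were called, beside 3.7% of all tested miRNAs, and the median log2 difference was 0.27. miR-99a-5p was at log2 0.82 ± 0.23 (adjusted p = 0.0765) and miR-100-5p at log2 0.80 ± 0.24 (adjusted p = 0.0912), beside 0.79 for miR-199a-3p, while miR-143-3p was at -0.95 ± 0.47 and miR-145a-5p at -1.39 ± 0.59. Between ConA+D8THC and Vehicle, 3 of the 9 were called lower, beside 14.1% of all tested miRNAs called lower. The 3 were miR-100-5p, miR-99a-5p and miR-10b-5p, at log2 -0.97, -0.80 and -0.97.

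**Figure D4:**
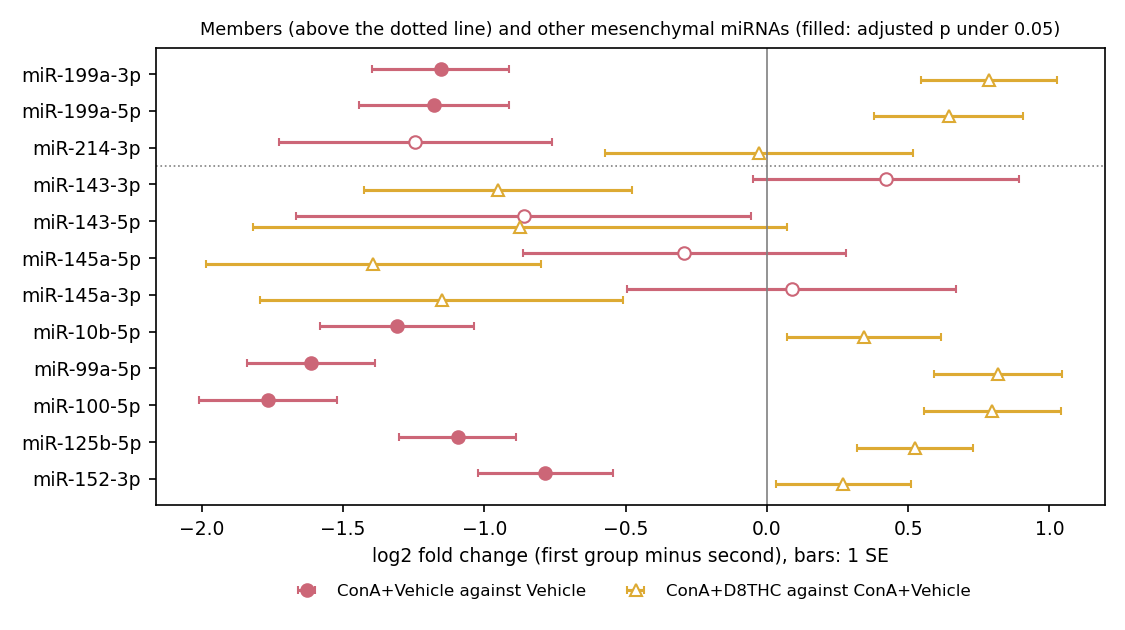
Log2 fold changes (x axis, bars 1 SE) of the 3 members and of the 9 tested miRNAs of the mesenchymal list for ConA+Vehicle against Vehicle (circles) and ConA+D8THC against ConA+Vehicle (triangles); filled symbols have an edgeR adjusted p under 0.05. Both arms of miR-199a and 5 of the 9 are called lower with ConA, and no triangle is filled.

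Of 10 miRNAs linked to liver fibrosis, all tested, 4 rose with ConA and 0 fell, beside 19.9% of all tested miRNAs called higher. miR-21a-5p, which is known to favour fibrosis, rose 2.90-fold, from 28375 ± 16925 to 82363 ± 4688 CPM (SD, n = 2, adjusted p = 0.0123 by edgeR). Its Vehicle replicates 1 and 2 were far apart, at 40343 and 16407 CPM. miR-29c-3p, of the family that represses collagen genes, rose 1.54-fold to 4920 ± 788 CPM (adjusted p = 0.0448), and miR-19b-3p and miR-221-3p rose 3.43-fold and 1.69-fold. Between ConA+D8THC and ConA+Vehicle 0 of the 10 were called, beside 3.7% of all tested miRNAs, with miR-21a-5p at log2 -0.03 ± 0.37. The members of this list are made by many cell types, immune cells included.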

How the data were processed

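Small RNA libraries (QIAseq kit, NextSeq 550) were aligned and counted by the authors in QIAGEN's GeneGlobe portal, per the labels' design text, on build mm10, per the submitters' processing notes. The deposited values are raw counts per mature miRNA, whole numbers without normalization. The sources used here do not give the miRNA annotation release, the treatment of reads that match several miRNAs, or the use of molecular identifiers.

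All 1960 rows entered R 4.3.3 and edgeR 4.0.16: filterByExpr by group (297 kept), TMM factors, a group design over 6 libraries, robust glmQLFit and glmQLFTest, with Benjamini-Hochberg adjustment over the 297. Approximate SEs were obtained by dividing each absolute log2 fold change by the root of its F statistic. TMM-scaled sizes underlie CPM. Alternatives used limma 3.58.1 and DESeq2 1.42.0. Named miRNAs are the members, the other arms of their hairpins, called or abundant members of 2 lists, and the 3 non-members most correlated with each member (prior count 2). Marker miRNAs used as ratio denominators and miR-761, which shares a seed, are named beside these, and miR-122-3p and miR-223-3p were added after their values were seen. The members and lists were chosen with earlier results of these data known. With 2 against 2 libraries a permutation test of a single value cannot go below p = 0.333, so ratios carry no test. P-values measure the spread between these libraries only. Positions are from RefSeq GRCm38.p6 and GENCODE M21.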

Additional observations from a re-analysis of the deposited data

How the results depend on the processing

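Over 15 alternatives miR-199a-3p stayed lower with ConA and called (log2 -1.26 to -1.04), and miR-199a-5p lost its call only without 1 library (log2 -1.37 to -0.98 with each library left out). For ConA+D8THC against ConA+Vehicle, miR-199a-3p passed the threshold at log2 0.89 in DESeq2, 0.78 with only the groups compared and 0.76 with the replicate block, and ranged from 0.46 to 1.08 with each library left out; miR-199a-5p ranged from 0.34 to 0.93. There miR-214-3p, near 0, changed sign, to 0.078 with median-of-ratios factors, 0.034 with library totals, 0.042 with no filter and 0.076 in DESeq2, and ranged from -0.079 to 0.067 with each library left out. Against Vehicle its call ended at log2 -1.29 with no filter, -1.28 in DESeq2, -1.18 with only the groups compared and -1.19 with miR-126a-3p and miR-122-5p left out, and ranged from -1.44 to -1.01 with each library left out; the cause was not tested. miR-199a-5p passed there at log2 -0.54 with the replicate block. Same-numbered libraries deviated together at r = 0.203, 0.238 and 0.0726, so the numbers were not taken as pairs. The count of calls for ConA+D8THC against ConA+Vehicle was 11, and 17 with upper-quartile factors or DESeq2, 19 with no filter, 18 with only the groups compared, 44 with the block, 34 and 40 without Vehicle replicate 1 or 2, 8 and 17 without ConA+Vehicle replicate 1 or 2, and 17 and 24 without ConA+D8THC replicate 1 or 2. Calls with ConA went from 109 to 67 without ConA+Vehicle replicate 1, and those for ConA+D8THC against Vehicle from 97 to 63 without ConA+D8THC replicate 1. Scaling moved the median of all miRNAs by up to 0.11; relative to that median, miR-214-3p lay at 0.013 to 0.024 for ConA+D8THC against ConA+Vehicle, and miR-199a-3p at -1.27 to -1.25 with ConA in all 4 scalings. Adding 1 count to each side moved 3 of 36 group ratios by over 1 SD, all with miR-214-3p in ConA+Vehicle. Summing miR-199a-3p with miR-199b-3p was not run, since the latter has no row. Depth limits miR-214-3p and the rare arms most.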
